A study of Mus musculus with 16 samples.

Results

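The comparison set c-Fos shRNA neurons given KCl for 1 h (2 arrays) against c-Fos shRNA neurons at 0 h (2 arrays), chosen by the array titles, which makes 4 of the 16 arrays of the study. The cells were neurons of C57BL/6 mouse cortex, taken at embryonic day 16.5 and grown in culture. On day 5 in vitro all of the cultures used here received lentivirus for 6 h with polybrene at 6 µg/ml, carrying an shRNA either against c-Fos or, in the control arm, against firefly luciferase. On day 7 all cultures were silenced, with agents that the labels do not name, and RNA was taken after 0, 1, 3 or 6 h of KCl and hybridised as 10 µg of labelled cDNA to an Affymetrix array, the mouse genome 430 2.0 design. Each of the 8 groups held 2 arrays. The control shRNA arrays at 0 h and 1 h (4 arrays) and the c-Fos shRNA arrays at 3 h (2 arrays) were used beside the comparison. Arrays of a group are biological replicates in the labels, which name no separate dissections, and a p-value here reflects only how far these arrays differ. They name no clone or cell type for the shRNA, and a culture holds infected and uninfected cells whose shares are not analysed here.

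Raising external KCl depolarizes neurons, opens voltage-gated calcium channels and starts a wave of transcription. The first genes of that wave, the immediate early genes, need no new protein: calcium signalling acts on factors already bound near their start sites, among them CREB at cyclic AMP response elements and SRF at CArG boxes. Many of the first products are transcription factors themselves. One of them is c-Fos, which pairs with Jun proteins to form AP-1, and the shRNA of these cultures is aimed at it.

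The start sites of the genes that the comparison turned on are shown first, because members that moved together can then be set against the letters they share. For the 7 largest log2 rises among genes with 1 start in the table, for Dusp1, shown for its full CRE, and for Txnip, which fell furthest, the 250 bases before the RefSeq start (build GRCm38.p6) are given 5′ to 3′ on the strand of the gene. These windows were chosen with the matches known. Capitals mark matches on either strand to the cyclic AMP response element (CRE) TGACGTCA, its core TGACG, the EGR site GCGNGGGCG and, in Txnip alone, a pair of CACGNG boxes 5 bases apart, here called the paired motif. The core lies within the full element, so both count where the full one occurs. The windows are Fosb at chr7:19310046-19310295 (minus strand), Npas4 at chr19:4989972-4990221 (minus), Fos at chr12:85473640-85473889 (plus), Egr4 at chr6:85513590-85513839 (minus), Junb at chr8:84978749-84978998 (minus), Gadd45b at chr10:80929841-80930090 (plus), Nr4a1 at chr15:101266596-101266845 (plus), Dusp1 at chr17:26508473-26508722 (minus) and Txnip at chr3:96557707-96557956 (plus).
Fosb: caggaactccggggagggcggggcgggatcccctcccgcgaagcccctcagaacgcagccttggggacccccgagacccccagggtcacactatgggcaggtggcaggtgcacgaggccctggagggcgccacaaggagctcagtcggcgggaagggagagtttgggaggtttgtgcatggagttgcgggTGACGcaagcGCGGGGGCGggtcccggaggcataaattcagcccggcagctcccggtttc
Npas4: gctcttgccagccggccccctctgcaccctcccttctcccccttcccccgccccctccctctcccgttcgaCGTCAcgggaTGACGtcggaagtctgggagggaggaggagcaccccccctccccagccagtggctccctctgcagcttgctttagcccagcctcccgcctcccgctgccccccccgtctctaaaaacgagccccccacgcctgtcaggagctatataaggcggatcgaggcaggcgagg
Fos: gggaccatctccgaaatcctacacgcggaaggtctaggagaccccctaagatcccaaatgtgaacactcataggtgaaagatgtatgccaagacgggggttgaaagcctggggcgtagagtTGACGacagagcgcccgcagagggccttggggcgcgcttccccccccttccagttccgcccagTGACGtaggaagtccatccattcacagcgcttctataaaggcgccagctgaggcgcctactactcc
Egr4: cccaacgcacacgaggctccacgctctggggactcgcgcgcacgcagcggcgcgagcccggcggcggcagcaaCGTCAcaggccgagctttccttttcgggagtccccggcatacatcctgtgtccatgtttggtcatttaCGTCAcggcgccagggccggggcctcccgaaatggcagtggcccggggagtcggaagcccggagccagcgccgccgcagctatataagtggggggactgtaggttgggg
Junb: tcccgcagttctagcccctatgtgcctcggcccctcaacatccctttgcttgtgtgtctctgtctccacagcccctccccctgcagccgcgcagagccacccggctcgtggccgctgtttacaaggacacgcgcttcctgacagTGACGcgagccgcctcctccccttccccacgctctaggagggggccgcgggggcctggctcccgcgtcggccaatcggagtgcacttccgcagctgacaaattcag
Gadd45b: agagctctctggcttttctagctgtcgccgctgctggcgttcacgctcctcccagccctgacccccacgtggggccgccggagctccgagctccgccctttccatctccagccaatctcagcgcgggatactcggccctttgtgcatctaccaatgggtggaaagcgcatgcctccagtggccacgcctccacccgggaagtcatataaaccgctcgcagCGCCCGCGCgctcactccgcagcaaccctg
Nr4a1: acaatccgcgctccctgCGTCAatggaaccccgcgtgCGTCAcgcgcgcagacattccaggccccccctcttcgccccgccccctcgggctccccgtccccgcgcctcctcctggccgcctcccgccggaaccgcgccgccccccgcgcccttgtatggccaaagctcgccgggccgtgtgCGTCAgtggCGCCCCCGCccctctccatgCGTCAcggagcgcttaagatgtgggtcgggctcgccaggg
Dusp1: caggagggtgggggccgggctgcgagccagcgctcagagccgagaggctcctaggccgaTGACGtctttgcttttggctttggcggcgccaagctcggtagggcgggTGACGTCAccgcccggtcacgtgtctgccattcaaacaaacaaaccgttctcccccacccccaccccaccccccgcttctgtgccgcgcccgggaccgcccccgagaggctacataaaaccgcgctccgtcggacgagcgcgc
Txnip: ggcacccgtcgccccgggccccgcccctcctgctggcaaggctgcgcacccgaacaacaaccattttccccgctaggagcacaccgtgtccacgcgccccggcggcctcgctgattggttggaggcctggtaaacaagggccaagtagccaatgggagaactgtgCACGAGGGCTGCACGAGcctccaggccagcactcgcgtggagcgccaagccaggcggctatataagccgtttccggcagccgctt

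In these windows Fosb held 1 core site, starting 60 bases before the start, and an EGR site starting at 50 bases. Npas4 had core sites at 179 and 169 bases, Fos at 129 and 66, Egr4 at 177 and 109, and Junb 1 at 106. Gadd45b held no core site and an EGR site at 30 bases. Nr4a1 held 4 core sites (233, 213, 69 and 40 bases) and an EGR site at 60. Dusp1 was the only printed window with the full CRE, at 143 bases, and it had another core site at 191. The Txnip window had no CRE letters and a pair of CACGNG boxes spanning bases 85 to 69.

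Across the array, promoters were matched by symbol for 11215 of the 13915 genes tested, and a gene counted where any of its starts held the letters. The core TGACG was present in 141 of 225 genes called higher at 1 h (62.7%), in 41 of 164 called lower (25%) and in 29.5% of all tested genes. Among the 25 largest rises it was present in 15 of the 21 with a promoter entry (71.4%). The 6 rises without it were Gadd45b, Gadd45g, Fbxo33, Spty2d1, Sertad1 and Ptgs2. The full CRE was found in 30 of 225 genes called higher (13.3%), in 5 of 164 called lower (3.05%) and in 2.84% of tested genes. Both CRE shares were thus higher among the rises than among the falls or all tested genes. The EGR site stood at 15.6%, 6.1% and 10.2% in the same order, and the CArG box at 3.11%, 1.22% and 1.38%. The AP-1 site TGANTCA was at 5.33% among rises, 3.66% among falls and 5.53% among tested genes. Over all 32851 promoter windows of the table the shares were 17.8% for the core site, 1.55% for the CRE, 4.7% for the EGR site, 1.47% for the CArG box, 6.75% for the AP-1 site and 0.0457% for the paired motif. Gpr6, a gene that fell, held a full CRE at 78 bases. These are matches of letters with no test, and no match says only that the letters are not in these windows.

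Fos itself, the target of the shRNA, had intensities of 118 and 152 at 0 h and 7728 and 9623 at 1 h with c-Fos shRNA. In the control arm its intensities were 261 and 232 at 0 h and 14633 and 14719 at 1 h. Between the arms 22.3% of all tested genes were called at 0 h and 20.8% at 1 h. Both c-Fos shRNA arrays lay below both control arrays at each time, and the arms differed by a log2 of -0.77 at 0 h (SE 0.1, adjusted p = 1.72e-04) and of -0.75 at 1 h (SE 0.1, adjusted p = 2.42e-04). Fos RNA was therefore lower in the c-Fos shRNA arm but far from absent after KCl. The rise within the arm was 64.3-fold on the linear scale and 5.85 on the log2(intensity + 16) scale (SE 0.1, adjusted p = 2.26e-12), against 5.83 in the control arm, and the difference between the responses was 0.02 (SE 0.14, adjusted p = 1). The pseudocount of 16 makes log2 changes of dim genes smaller than their linear folds, and all changes below are on that log2 scale unless a linear fold is named. RNA was measured, not c-Fos protein.

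With c-Fos shRNA, 273 genes were called higher and 195 lower after 1 h of KCl, 1.96% and 1.4% of the genes tested, where called means an adjusted p under 0.05 in limma's test. The rises reached further: 88 genes (0.632%) were higher by 2-fold or more, 35 by 4-fold or more and 9 by 16-fold or more, while 31 genes (0.223%) were lower by 2-fold or more and 1 by 4-fold or more. Both 1 h arrays lay above both 0 h arrays in 12.5% of tested genes and below them in 22.2%, called or not. Over all tested genes the median log2 change was -0.03 and the median SE 0.135. Genes were kept by their mean over all 16 arrays, KCl arrays included. At 0 h, 8 of the 273 rises and 0 of the 195 falls had a mean below that cut (log2 5.786). Fosb (5.25), Egr4 (5.68), Maff (5.64) and Ptgs2 (5.19) were among the 8. Such genes were tested only through arrays where they were higher. Same-numbered arrays deviated together, and a fit blocked on replicate number called 569 genes (4.09%) higher and 590 (4.24%) lower, including all 468 called without it. The count of falls moved with single arrays: it was 48 without replicate 1 of 0 h, 87 without replicate 2 of 0 h and 57 without replicate 1 of 1 h. The count of rises ran from 189 to 218 as each of the 4 arrays was left out.

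Fosb, which codes for another partner of the Jun proteins, had the largest log2 rise. Its intensities were 17 and 28 at 0 h and 3486 and 3290 at 1 h (log2 6.48, SE 0.22, adjusted p = 1.66e-09). Junb, a Jun protein that binds DNA with Fos proteins, went from 173 and 172 to 6624 and 6550 (5.13, SE 0.08). In both genes the 1 h arrays agreed closely and the times did not overlap, as the rule for naming them required. At 0 h Fosb lay below the filter cut, so it was tested only through arrays where it was higher. The other members of AP-1 moved less: Fosl2 by 1.68, Jun by 0.88 and Jund by 0.36, all called. Fosl1, the seventh subunit, was not called, with intensities of 104 and 155 at 0 h and 159 and 155 at 1 h (0.27, adjusted p = 0.617), and its change in the control arm was 1.23 (adjusted p = 2.89e-04); the difference between the arms was not called (adjusted p = 0.465). In all, 6 of 7 AP-1 genes were called higher and none lower, with a median log2 change of 1.68. Set beside this list and those below, 1.96% of all tested genes were called higher and 1.4% lower. The lists were chosen with earlier results of these data known, so their counts describe the members and test nothing. Jund was not called with probe sets averaged (0.2, adjusted p = 0.843) or with only the arrays compared (adjusted p = 0.0667).

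Npas4, an activity-regulated bHLH-PAS factor found in neurons, rose from 91 and 124 to 8397 and 8431 (6.09, SE 0.09, adjusted p = 1.04e-12). Maff, a small Maf protein, went from 37 and 32 to 1249 and 968 (4.44, SE 0.18). Of the 14 tested bZIP, bHLH and Maf factors in that list 6 were called higher and none lower, and the replicate block called 7 higher and 3 lower, Id3, Bhlhe40 and Myc. The others were Crem, the cyclic AMP response modulator, at 2.14, Atf3 at 2.09, Nfil3 at 1.97 and Cebpb at 1.33. Id3, an inhibitor of bHLH factors, read 131 and 251 at 0 h and 31.1 and 104 at 1 h, a change of -1.38 with an SE of 0.51 that was not called (adjusted p = 0.266; 5.76e-05 with the replicate block). The replicate arrays of Id3 stood far apart at both times.

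All 4 Egr zinc-finger factors rose. Egr4 went from 36 and 34 to 1406 and 2358 (5.14, SE 0.21), Egr2 from 163 and 198 to 3769 and 4722 (4.42, SE 0.14) and Egr1 from 603 and 1178 to 12124 and 13621 (3.9, SE 0.2). The 0 h arrays of Egr1 were uneven, yet both lay far below those at 1 h. Egr3 changed by 2.14. Their corepressors Nab1 (0.34) and Nab2 (0.25) were not called, Nab1 with an adjusted p of 0.00179 under the replicate block. The 3 orphan nuclear receptors of the Nr4a family also rose: Nr4a1 from 411 and 512 to 9106 and 9212 (4.29, SE 0.14), Nr4a2 from 842 and 1104 to 7115 and 6497 (2.8, SE 0.09) and Nr4a3 from 1998 and 2244 to 11035 and 9966 (2.29, SE 0.08). Of the 6 probe sets of Nr4a2, 4 were called higher, between 2.27 and 3.06, and the 2 dimmest were not called (0.63 and -0.37). The dimmer probe sets of Nr4a3 (1.17 and 0.88) were not called.

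Klf4, a Krüppel-like factor, rose from 178 and 206 to 2807 and 1796 (3.42, SE 0.2), and a second probe set gave 4.58. Only Klf9 (0.78) and Klf16 (0.74) joined it among 13 Krüppel-like genes tested, and none was called lower (4 higher and 1 lower with the replicate block). Ier2, an early nuclear protein, went from 211 and 250 to 3476 and 3854 (3.89, SE 0.1). Sertad1, a cofactor of cell-cycle transcription factors, rose from 115 and 117 to 720 and 668 (2.36, SE 0.1). With these, 10 of 28 early nuclear regulators were called higher and none lower (15 higher with the replicate block). They included the clock gene Per1 (1.86), Csrnp1 (1.37), the ubiquitin ligase Siah2 (1.35), Srf, which codes for the factor that binds CArG boxes (1.25), and Cited2 (0.96).

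**Figure D1:**
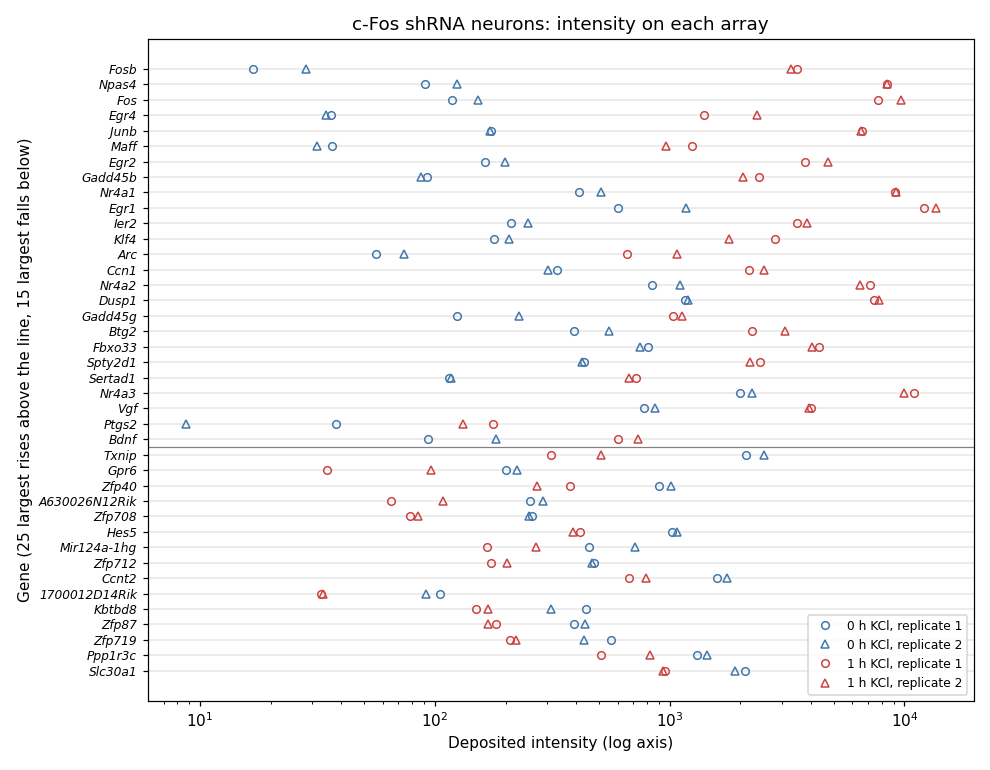
Deposited intensity on a log axis of the 25 largest rises and the 15 largest falls on each of the 4 c-Fos shRNA arrays, circles for replicate 1 and triangles for replicate 2, blue for 0 h and red for 1 h of KCl. The 0 h and 1 h arrays do not overlap in any of the 40 genes, as the rule for naming them required; Fosb spans 17 to 3486 and Ptgs2 has the widest gap between its 0 h arrays (38 and 9).

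Among regulators that cut signalling short, 5 of 11 dual-specificity phosphatases and 2 of 11 Sprouty, Spred and related genes were called higher. The share over all tested genes was 1.96% higher and 1.4% lower. Dusp1, a phosphatase that switches off MAP kinases, went from 1165 and 1200 to 7447 and 7788 (2.66, SE 0.09, adjusted p = 1.66e-09). Dusp5 (2.13), Dusp6 (1.64), Dusp16 (0.65) and Dusp4 (0.61) were also called higher, and no phosphatase of the family was called lower (7 higher and none lower with the replicate block); the median change was 0.55. The receptor tyrosine kinase inhibitors Errfi1 (1.62) and Spry4 (0.85) rose, while Rasl11b fell (-0.98, adjusted p = 0.0353), and the median of the 11 was 0.07. Spry4 lost its call with probe sets averaged (0.33, adjusted p = 0.258) and without replicate 2 of either time (0.0607 and 0.0555). Rasl11b lost its call with no further normalization (adjusted p = 0.0712), without the trend (0.0619), with only the arrays compared (0.102), and when replicate 1 or 2 of 0 h or replicate 1 of 1 h was left out (0.172, 0.193 and 0.302). Spred1, Spred2, Spred3, Spry1 and Spry2 were not called, with changes between -0.11 and 0.18.

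The list of kinases, small GTPases and G-protein regulators also held genes of other kinds, among them Ptgs2, Tiparp, Nfkbiz and Mcl1. Of its 27 tested genes 10 were called higher and none lower (15 and 2 with the replicate block). Without that block all tested genes gave 1.96% higher and 1.4% lower. Pde4b changed by -0.47 without replicate 2 of 1 h. Ptgs2, the inducible cyclooxygenase, had the largest change, from 38 and 9 to 177 and 132 (2.21, SE 0.3, adjusted p = 9.45e-04). It was dim on all 4 arrays, and a second probe set gave 0.55 and was not called. Tiparp, an ADP-ribosyltransferase, changed by 2.15, Nfkbiz by 1.71, the salt-inducible kinase Sik1 by 1.69, the small GTPase Gem by 1.5 and Rgs2, which shortens G-protein signalling, by 1.06. Pim3, Plk2, Mcl1 and Rheb rose by 0.67, 0.62, 0.4 and 0.14.

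Of 9 genes whose products act on messenger RNA decay or restrain cell division 5 were called higher and none lower. Among all tested genes 1.96% were called higher and 1.4% lower. Btg2, an antiproliferative protein that recruits deadenylases, went from 392 and 551 to 2252 and 3091 (2.48, SE 0.21). Tob2 (1.84), Pnrc1 (1.69), Tob1 (1.28) and Btg1 (0.94) followed. The decay factors Zfp36, Zfp36l1 and Zfp36l2, which bind AU-rich elements, were not called (0.32, 0.32 and 0.07); with the replicate block Zfp36l1 had an adjusted p of 0.00763. In the Gadd45 family the members parted: Gadd45b, tied to DNA demethylation in active neurons, rose from 93 and 88 to 2395 and 2046 (4.36, SE 0.14), Gadd45g rose from 124 and 229 to 1038 and 1127 (2.53, SE 0.24), and Gadd45a fell from 180 and 142 to 97.3 and 81.8 (-0.72, SE 0.16, adjusted p = 0.0317). The Gadd45a call was lost when replicate 1 of 0 h, or either array of 1 h, was left out.

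Among genes that act at the synapse, Arc, which controls AMPA receptor endocytosis, had the largest change and went from 56 and 74 to 656 and 1070 (3.36, SE 0.18, adjusted p = 2.20e-07). Besides Arc and Egr3, also on this list, the potassium channel subunit Kcnf1 (0.71), the neurite growth factor Nrn1 (0.67) and the synapse organizer Lrrtm2 (0.53) rose, so 5 of 14 plasticity genes were called higher (8 with the replicate block) and none lower. Grasp, which the list names by its newer symbol Tamalin, was not matched and is not in that count; it was called higher too (0.94, adjusted p = 6.36e-05). Homer1 (-0.05), Nptx2 (-0.04) and Nptx1 (0.71) were not called, and Nptx1 had an adjusted p of 0.0492 with the replicate block. No ionotropic transmitter receptor among 15 tested was called, and their median change was -0.1. Of all tested genes 3.36% were called, 1.96% higher and 1.4% lower, so 0 calls among 15 does not set the receptor list apart.

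Of 23 secreted factors and processing enzymes 9 were called higher and none lower, where all tested genes gave 1.96% and 1.4%. Bdnf, the neurotrophin, rose from 94 and 183 to 601 and 730 (2.15, SE 0.23, adjusted p = 1.08e-04). Vgf, a neuropeptide precursor, went from 778 and 865 to 3998 and 3931 (2.26, SE 0.06), and Pcsk1, a protease that cuts such precursors, from 48.2 and 59.9 to 322 and 243 (2.05, SE 0.15). Ccn1, a matricellular protein, rose from 330 and 304 to 2185 and 2511 (2.83, SE 0.12). The other called members were Nppc (1.33), Ccn2 (1.06), Adcyap1 (1.01), Scg2 (0.65) and Sst (0.34). Crh (0.81) and Cartpt (0.83) had changes of like size that were not called, with adjusted p-values of 0.746 and 0.365 (0.0136 and 0.00645 with the replicate block).

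Fbxo33, which codes for an F-box protein, rose from 811 and 746 to 4309 and 4051 (2.42, SE 0.09), and Spty2d1, a histone chaperone, from 431 and 423 to 2428 and 2208 (2.4, SE 0.1). Neither was on any of the lists. For Spty2d1 a second probe set also rose (1.37), and the 2 dimmest were not called (-0.19 and -0.12).

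In the stress and metabolic lists a few genes were called higher, where all tested genes gave 1.96%. The median log2 change was 0.02 for the unfolded protein list, 0.05 for heat shock, 0.08 for cholesterol, -0.01 for p53 and 0.1 for splicing. Of 21 genes of the unfolded protein and integrated stress response 5 were called higher and none lower (1 with the replicate block), and the count of rises was 3 without replicate 1 of 0 h or replicate 2 of 1 h. They were Ppp1r15a, which directs dephosphorylation of eIF2 alpha, from 441 and 535 to 2105 and 2238 (2.12, SE 0.09), then Herpud1 (0.89), Dnajb9 (0.73), the chaperone Hspa5 (0.62) and Atf4 (0.61). Ddit3 (-0.13), Asns (0.02) and Xbp1 (0.02) were not called. The heat shock genes Dnajb1 (0.77) and Dnajb4 (0.73) were the 2 of 14 called (3 with the replicate block). In cholesterol synthesis 4 of 13 genes rose, Idi1 (0.95), Sc5d (0.56), Msmo1 (0.44) and Cyp51 (0.38), and 2 were called without replicate 1 of 0 h or without replicate 2 of 1 h (5 with the replicate block). Pmaip1 (1.27) and Cdkn1a (0.44) were the 2 of 13 p53 and apoptosis genes called, and the count was 1 whichever of the 4 arrays was left out; the replicate block called 2 others lower. Of 15 splicing regulators the kinases Clk1 (1.06) and Clk4 (0.38) were called; the count was 1 with any of the 4 arrays left out and 5 with the replicate block. No gene was called among 16 of glucose uptake and glycolysis and 9 of the interferon response, where limma gave 0 calls against 3.36% of all genes; the replicate block called Slc2a3 higher (0.29) and Pfkfb3 lower (-0.39), and Pfkfb3 was also called without replicate 2 of 0 h (-0.54, adjusted p = 0.0416).

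Of the 92 list genes called, 20 lost their call when 1 of the 4 arrays was left out, with adjusted p-values of 0.0532 to 0.334: 16 without replicate 1 of 0 h, 11 without replicate 2 of 0 h, 9 without replicate 1 of 1 h and 17 without replicate 2 of 1 h. Cdkn1a, Clk4, Dusp16 and Klf16 lost it whichever array was left out. Adcyap1, Gadd45a, Rasl11b, Rheb, Sc5d and Sst lost it in 3 of the 4 fits, Arid5a, Atf4, Cyp51, Dnajb9, Jun, Nrn1, Pim3, Sertad3 and Spry4 in 2, and Gem in 1, without replicate 1 of 0 h.

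**Figure D2:**
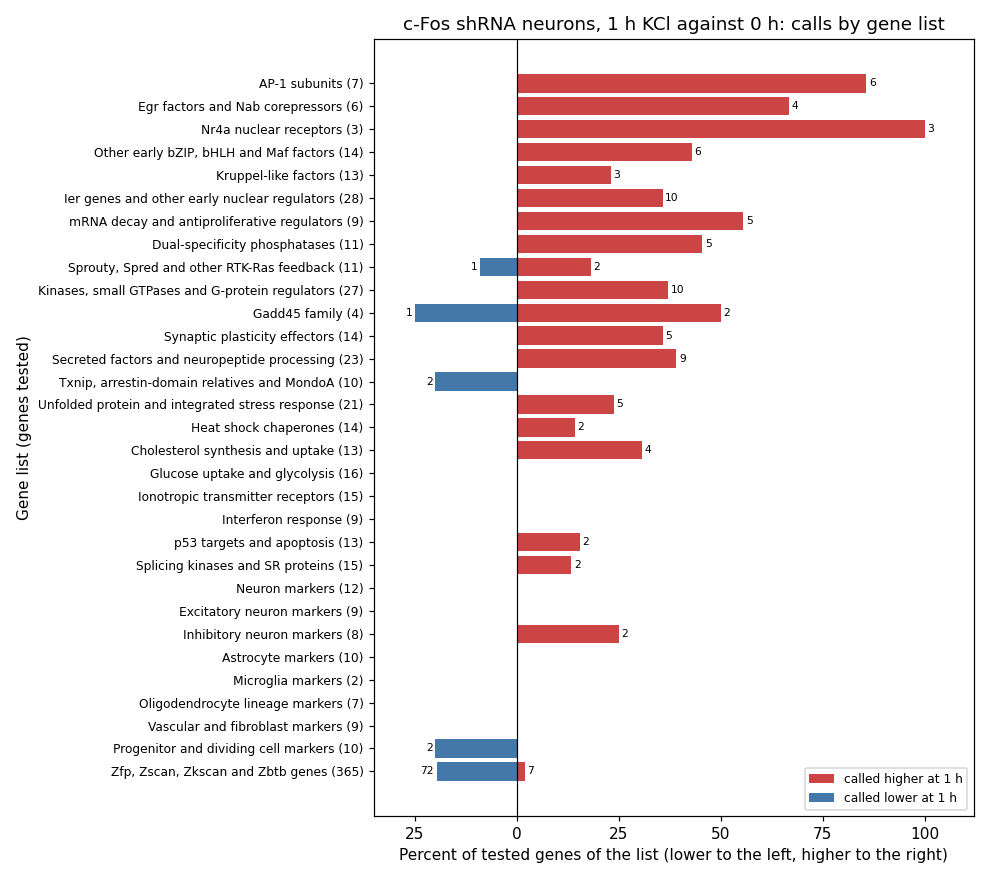
Percent of the tested genes of each list called higher (red, to the right) or lower (blue, to the left) at 1 h against 0 h with c-Fos shRNA, with the number called at each bar and the number tested in brackets. Over all tested genes 1.96% were called higher and 1.4% lower. The lists overlap in a few genes, such as Egr3 and Zbtb11, and were chosen with earlier results of these data known.

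Among falls, Txnip stood alone past 4-fold. Its product, thioredoxin-interacting protein, holds back thioredoxin and glucose uptake, and its transcription is known to follow glucose through MondoA and its partner Mlx at paired E-box-like elements. Txnip went from 2112 and 2526 at 0 h to 312 and 512 at 1 h (-2.54, SE 0.25, adjusted p = 6.36e-05), and its second probe set gave -2.65. Both probe sets moved alike, and the 0 h and 1 h arrays stood far apart. Arrdc3, an arrestin-domain relative, fell from 3341 and 4394 to 2510 and 2503 (-0.65, SE 0.11, adjusted p = 0.00384). Arrdc4 (-0.11), Arrdc2 (-0.5), Mlx (0.03) and the MondoA gene Mlxip (-0.01) were not called.

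Hes5, a Notch target that maintains neural progenitors, fell from 1026 and 1072 to 415 and 389 (-1.4, SE 0.12, adjusted p = 1.37e-05), and Sox2, another progenitor factor, from 6033 and 6381 to 4389 and 4205 (-0.56, SE 0.07). They were the 2 of 10 progenitor and division markers called; Nes (0.04), Pax6 (-0.1), Mki67 (-0.01) and Top2a (0.05) were not. The summed intensity of that list was 17910 and 19870 at 0 h and 16820 and 18070 at 1 h, and the groups overlapped, while within each replicate number it was lower at 1 h. Mir124a-1hg, a host transcript of the neuronal miRNA miR-124, fell from 452 and 710 to 167 and 269 (-1.34, SE 0.26, adjusted p = 0.0129). That call was lost without replicate 2 of 0 h or replicate 1 of 1 h, when its adjusted p was 0.146 and 0.149.

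The receptor gene Gpr6 went from 201 and 224 to 35 and 96 (-1.58, SE 0.33, adjusted p = 0.0186), and lost its call without replicate 1 or 2 of 0 h or replicate 1 of 1 h. Ccnt2, a cyclin of the elongation factor P-TEFb, went from 1589 and 1757 to 668 and 795 (-1.24, SE 0.1), but its 5 probe sets ranged from -1.24 to 0.25, with 2 called lower. Slc30a1, a zinc exporter, fell from 2086 and 1901 to 955 and 939 (-1.12, SE 0.14) on one probe set, and a dimmer one gave 0.14. Ppp1r3c, a glycogen-targeting subunit of protein phosphatase 1, fell from 1302 and 1447 to 512 and 824 (-1.12, SE 0.23, adjusted p = 0.0159); the call was lost without either 0 h array or without replicate 1 of 1 h. Kbtbd8, A630026N12Rik and 1700012D14Rik were the remaining ones outside the zinc-finger genes among the 15 largest falls, at -1.15, -1.48 and -1.2. The last lost its call without replicate 1 of 0 h. Dimmer probe sets of Ppp1r3c (-0.35), Kbtbd8 (-0.26) and 1700012D14Rik (-0.63) were not called.

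The largest group among the falls had symbols starting Zfp, Zscan, Zkscan or Zbtb, most of them zinc-finger proteins thought to bind DNA and often to repress it. Of 365 tested, 72 were called lower (19.7%) and 7 higher, and they made up 36.9% of all 195 falls while they were 2.62% of the genes tested. Their median log2 change was -0.2, with quartiles of -0.46 and -0.05, against -0.03, -0.12 and 0.07 over all tested genes. Values below 0 were found in 81.1% of them and in 60.1% of all genes. The median was -0.26 between the replicate 1 arrays and -0.16 between the replicate 2 arrays, where all genes gave -0.06 and 0. It was -0.17 without further normalization and -0.17 after a plain shift of the array medians, so the direction did not turn with the scaling. Their median level over the 16 arrays was 8.87 on the log2 scale, and 9.35 for all tested genes.

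The number called was less firm than the direction. With single arrays left out, 17 were called lower without replicate 1 of 0 h, 42 without replicate 2 of 0 h, 20 without replicate 1 of 1 h and 56 without replicate 2 of 1 h; with the replicate block the count was 118 lower and 15 higher. The falls ran from -1.57 to -0.35. Zfp40 went from 900 and 1017 to 377 and 272 (-1.57, SE 0.25, adjusted p = 0.00345), with 3 further probe sets between -1.28 and -0.37 that were not called. Zfp708 went from 259 and 251 to 78 and 85 (-1.44, SE 0.15, adjusted p = 1.22e-04). Zfp712 went from 474 and 466 to 173 and 203 (-1.25), Zfp87 from 390 and 436 to 182 and 168 (-1.14) and Zfp719 from 560 and 432 to 209 and 222 (-1.14). A dimmer probe set of Zfp719 gave -0.47 and was not called. In each of these genes both 1 h arrays lay below both 0 h arrays, as the rule for naming them required. Members of this gene class are alike in sequence, and how far the probe sets tell near copies apart was not tested. The 7 that rose were Zbtb21 (1.65), Zfp184 (1.44), Zbtb11 (1.03), Zfp948 (0.99), Zfp131 (0.7), Zfp868 (0.65) and Zfp711 (0.41).

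**Figure D3:**
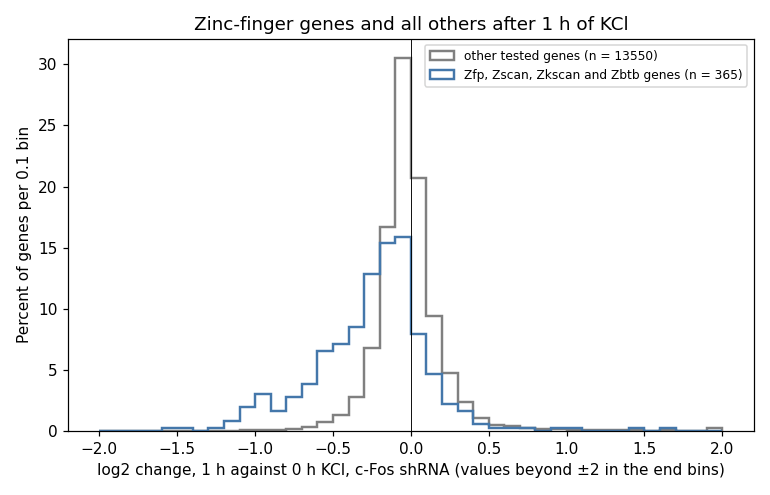
Percent of genes per 0.1 bin of the log2 change at 1 h against 0 h with c-Fos shRNA, for 365 Zfp, Zscan, Zkscan and Zbtb genes (blue) and the other tested genes (grey). The blue curve has a longer left side and a median of -0.2; the grey curve peaks just below 0.

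The labels name neurons, and markers of neurons and of other cell types, chosen here, were checked. Neuron genes were bright on all 4 arrays, Tubb3 between 12447 and 13767 and Snap25 between 8643 and 9548, and none of 12 was called (Nefl was called higher with the replicate block, with no further normalization, above the 50th percentile, with probe sets averaged and without replicate 2 of 1 h). No marker was called among 9 of excitatory neurons, 10 of astrocytes, 9 of vessels and fibroblasts, 7 of the oligodendrocyte lineage and 2 of microglia; limma gave 0 calls for each, while the replicate block called lower the astrocyte genes Aqp4 (-0.22) and Gja1 (-0.19), the oligodendrocyte lineage genes Olig2 (-0.57) and Sox10 (-0.57) and the neuron gene Neurod1 (-0.3), and called Neurod6 higher (0.2). With probe sets averaged Slc1a3 was called lower (-0.27, adjusted p = 0.0408). Of all tested genes 3.36% were called, so 0 calls in lists of 2 to 12 genes say little about cell types. Slc17a7, a vesicular glutamate transporter, was dim (97 to 185) and so was the astrocyte gene Gfap (82 to 116), while Slc1a3, a glial glutamate transporter, lay between 4984 and 5766. Of 11 microglia markers only 2 passed the filter on dim genes. The summed oligodendrocyte markers were 14050 and 17710 at 0 h and 11420 and 14880 at 1 h, and the summed astrocyte markers 25390 and 30510 against 24670 and 27920; the times overlapped in both, but within each replicate number both sums were lower at 1 h. Among 8 interneuron markers the homeobox genes Dlx5 (480 and 444 to 1022 and 1033, 1.11) and Dlx2 (831 and 1003 to 1510 and 1393, 0.64) rose, while Gad1 (0.05), Gad2 (-0.05) and Slc32a1 (0.01) were not called, and the summed list was 13070 and 14150 against 14720 and 15210. In bulk RNA, fewer cells of a type and less RNA per cell cannot be told apart.

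The later arrays of the same arm show which 1 h changes went on. From 1 h to 3 h 6.95% of all tested genes were called higher and 12.4% lower. Of the 273 rises 142 were higher again at 3 h, 31 were lower and 100 were not called; of the 195 falls 82 were lower again, 21 were higher and 92 were not called. Both comparisons share the 1 h arrays, so their values are only set side by side.

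Arc turned down most among the named rises: after 656 and 1070 at 1 h its intensities were 131 and 132 at 3 h and 113 and 128 at 6 h (3 h against 1 h, -2.47). Gadd45b (-2.18), Egr1 (-2.01), Egr2 (-1.9), Btg2 (-1.6), Ier2 (-1.34), Dusp1 (-1.15) and Fos (-1.12) also fell from 1 h to 3 h. Fosb (-0.33, adjusted p = 0.364) and Npas4 (-0.27, adjusted p = 0.0628) were not called between 1 h and 3 h, and Npas4 still read 4615 and 4492 at 6 h. A second set went on rising. Pcsk1 reached 1764 and 1545 at 3 h and 3181 and 2648 at 6 h (3 h against 1 h, 2.55), and Bdnf reached 2671 and 3221, then 3833 and 4561 (2.17). Sertad1 (1.47), Atf3 (1.42), Crem (1.34), Nppc (1.34) and Scg2 (0.73) belonged to it too. Txnip stayed low at 3 h (271 and 423) and read 546 and 687 at 6 h, below its 0 h arrays. Of the 72 zinc-finger genes called lower at 1 h, 32 were lower again by 3 h, 4 were higher and 36 were not called.

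**Figure D4:**
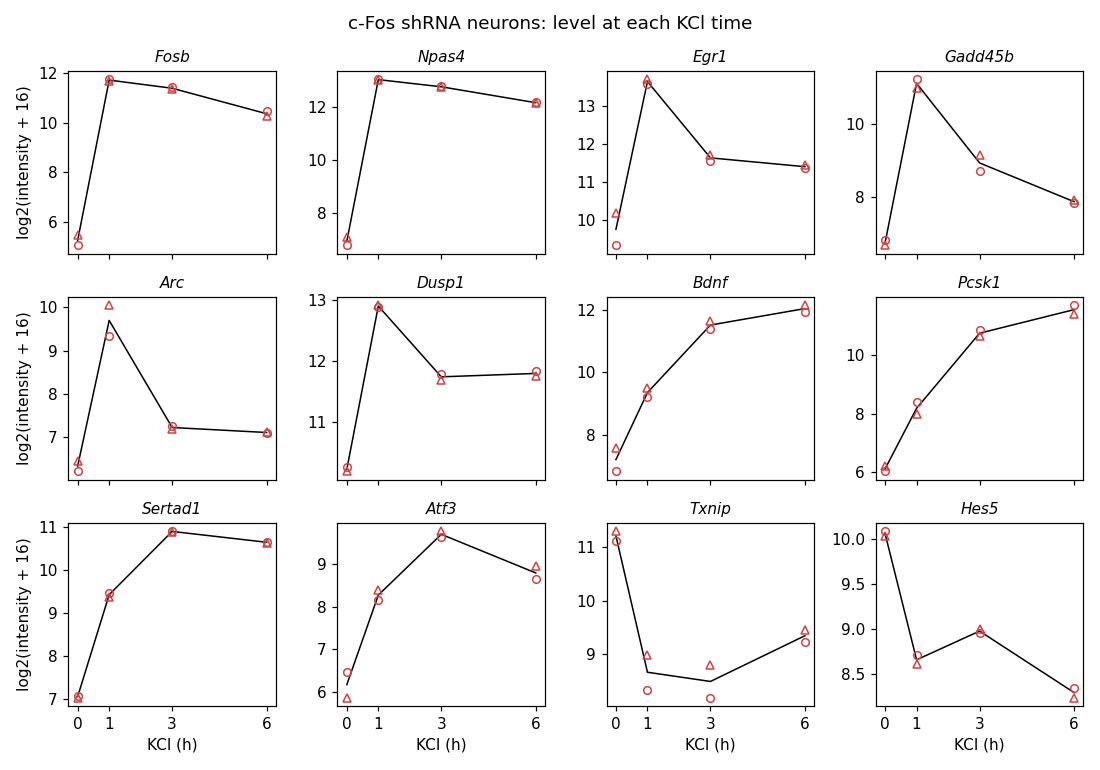
Level on the log2(intensity + 16) scale at 0, 1, 3 and 6 h of KCl with c-Fos shRNA for 12 genes, circles and triangles for replicates 1 and 2, the line through their mean. Egr1, Gadd45b, Arc and Dusp1 are highest at 1 h, Bdnf and Pcsk1 rise through 6 h, and Txnip and Hes5 are lower at every later time than at 0 h.

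The control arm, whose arrays are separate, gave 319 rises (2.29%) and 115 falls (0.826%) at 1 h; without further normalization this split was 357 and 59. Of the 273 c-Fos shRNA rises 217 were also called higher there, 79.5% of this list and 68% of the control list. Of the 195 falls 78 were also called lower, 40% of this list and 67.8% of the control list, and no gene was called opposite ways. For the zinc-finger genes the control arm had 35 of 365 called lower (9.59%) and 10 higher with a median of -0.16. All 72 of them that fell with c-Fos shRNA had a negative change there, but so had 191 of all 195 falls. The interaction called none of the 365, so a difference between the arms was not shown for that group. Txnip fell by 2.02 in the control arm (difference between arms -0.52, adjusted p = 1).

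The difference between the responses (c-Fos shRNA change less the control change) was called for 6 of 13915 genes (0.0431%): 5 were lower with c-Fos shRNA (0.0359%) and 1 higher (0.00719%); 421 genes had an unadjusted p under 0.05. With the replicate block 28 were called, 25 lower and 3 higher. Leaving out single arrays of the 4 groups left between 1 and 4.

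Vgf differed most. With c-Fos shRNA its intensities rose from 778 and 865 to 3998 and 3931 (2.26), and with control shRNA from 221 and 246 to 3696 and 3476 (3.87), a difference of -1.61 (SE 0.09, adjusted p = 4.66e-06). The arms stood apart at 0 h, where c-Fos shRNA was higher by 1.76 (adjusted p = 2.24e-08), and nearly together at 1 h (0.15, adjusted p = 0.117). The smaller rise thus had the higher starting level. Vgf stayed called under each setting tried, whichever array was left out.

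Emd, which codes for the nuclear envelope protein emerin, rose from 2498 and 2626 to 3010 and 3225 with c-Fos shRNA and from 1851 and 1881 to 3730 and 3811 with control shRNA (difference -0.73, SE 0.08, adjusted p = 0.0111). Grasp, a scaffold of metabotropic glutamate receptors, rose from 419 and 456 to 848 and 881 against 356 and 385 to 1642 and 1377 (-1.01, SE 0.13, adjusted p = 0.027). For Dusp6 the intensities were 1290 and 1357 then 4279 and 4098 against 750 and 933 then 4795 and 5482 (-0.95, SE 0.13, adjusted p = 0.0324). Kcnf1 went from 621 and 742 to 1120 and 1150 against 460 and 506 to 1329 and 1405 (-0.73, SE 0.11, adjusted p = 0.0439). The second probe sets of Grasp and Kcnf1 gave differences of -1.08 and -0.12, and the third of Grasp -0.28; none of these was called. In Emd, Grasp, Dusp6 and Kcnf1 both 1 h arrays with c-Fos shRNA lay below both control ones. At 0 h the c-Fos arm was called higher for Emd (0.46), Dusp6 (0.66) and Kcnf1 (0.49) and not for Grasp (0.24, adjusted p = 0.0949).

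Tgoln1, a trans-Golgi network protein, was the gene with the larger response: 966 and 1085 to 1914 and 2064 with c-Fos shRNA (0.93) and 3041 and 3197 to 3378 and 3647 with control shRNA (0.14), a difference of 0.79 (SE 0.12, adjusted p = 0.0439). It was lower in the c-Fos arm at 0 h by a log2 of -1.62, and its other 3 probe sets gave differences of 0.35, 0.11 and -0.08. Apart from Vgf these calls were fragile, though the replicate block kept each of them, from Tgoln1 (adjusted p = 6.53e-05) to Dusp6 (9.70e-04). Emd lost its call in 6 of the 8 fits that left out 1 array, Grasp and Dusp6 each in 7, and Kcnf1 and Tgoln1 in all 8. The next genes by p were not called: Cln8 (-0.87, adjusted p = 0.0747), Mknk2 (-0.46, adjusted p = 0.176), Rgs2 (-0.43, adjusted p = 0.247) and Nr4a3 (-0.6, adjusted p = 0.281). All of these 4 were called with the replicate block, as was Btg2 (-1.19, adjusted p = 0.00326 with the block and 0.78 without).

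Among the 25 largest rises 19 had a smaller change with c-Fos shRNA than with control shRNA, but Vgf alone was called. Arc differed by -1 (adjusted p = 0.853) and Egr2 by 0.63 (adjusted p = 1). Of all 273 rises 148 had the smaller change with c-Fos shRNA. Over all tested genes the median difference between the responses rounded to 0. How many of all tested genes had the smaller change was not counted, so neither 19 of 25 nor 148 of 273 has a share beside it. A weaker response across the rises was not tested.

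**Figure D5:**
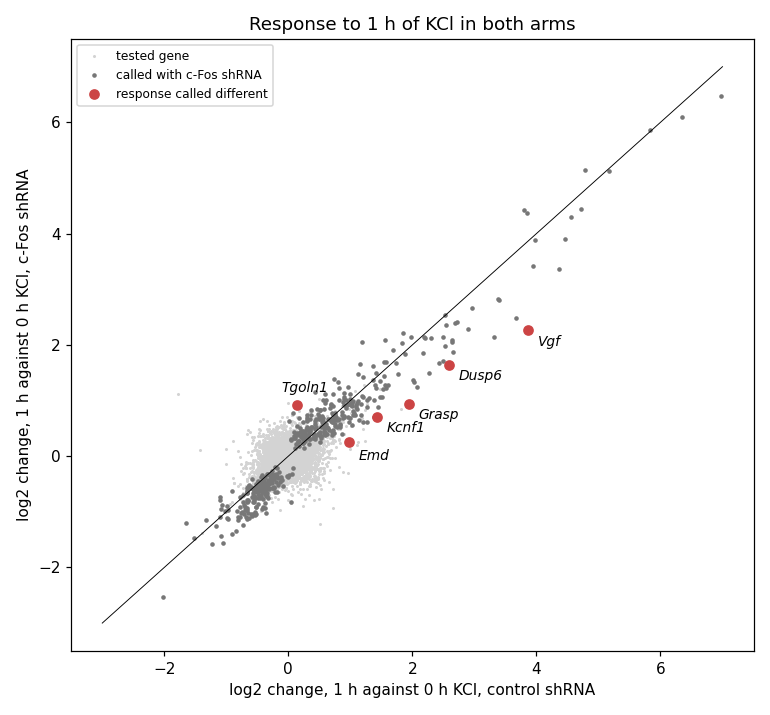
The log2 change at 1 h against 0 h of KCl with control shRNA (x axis) and with c-Fos shRNA (y axis) for each of the 13915 tested genes; dark grey marks genes called with c-Fos shRNA, red the 6 genes whose responses were called different, and the line equal change. Vgf lies furthest from the line among the red points (3.87 against 2.26), and Tgoln1 is the red point above it.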

How the data were processed

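RNA from 16 cultures was measured on 16 arrays, and 4 of them form the comparison. The deposited table holds 1 linear intensity per probe set and array, made by the authors with Affymetrix processing, per the labels; the software, its version and any scaling were not given in the sources used here, and no detection calls were used here, so a dim gene has no tested floor. Array medians ran from 104.49 to 118.34, and replicate arrays correlated at 0.9906 to 0.9939. Intensities were turned into log2(intensity + 16) and quantile normalized. Of 45101 probe sets 64 were controls; of the others 34945 had 1 gene in the platform annotation, 932 several and 9160 none, and 34741 were matched to RefSeq (GRCm38.p6). Each of 18193 genes was represented by its brightest probe set. By their mean over all 16 arrays, 13915 genes above the 30th percentile (log2 5.786) were tested.

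limma 3.58.1 in R 4.3.3 fitted the 8 group means over all 16 arrays (8 residual degrees of freedom, eBayes with trend). All adjusted p-values of genes come from that fit with Benjamini-Hochberg adjustment over all tested genes, except those said to be with the replicate block or without an array; those of further probe sets are adjusted over all tested probe sets. Same-numbered arrays paired: the differences between replicates correlated between groups at 0.36 to 0.6 in all 28 pairs of groups, and at 0.44 for the groups compared. The scripts were checked on simulated data. Alternatives were another scaling, pseudocount, filter, probe set rule, sample set, trend, the block and each array left out. Named genes are Fos, called genes without overlap between the arrays (the top 25 rises and top 15 falls), every called interaction gene and the next ones up to 10, with members of 30 lists. The members and lists were chosen with earlier results of these data known, and the paired CACGNG motif was added after the others. Protein sequence features were not analysed here.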

Additional observations from a re-analysis of the deposited data

Results flagged for a closer look

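A test of the difference itself, the interaction of c-Fos shRNA and 1 h of KCl in limma, called 6 genes, most of them not firmly. Vgf had a log2 response lower by -1.61 with c-Fos shRNA than with control shRNA, Grasp by -1.01, Dusp6 by -0.95, Emd by -0.73 and Kcnf1 by -0.73. Tgoln1 had one higher by 0.79, but its other probe sets gave 0.35, 0.11 and -0.08, not called. Vgf alone kept its call with only the arrays compared, and alone without the trend. All 6 kept it with the replicate block. For Vgf both 1 h arrays lay above both 0 h arrays in each arm, and the rise with control shRNA was the larger one. The levels at 0 h differed between the arms for Vgf, Emd, Dusp6, Kcnf1 and Tgoln1, by 1.76, 0.46, 0.66, 0.49 and -1.62, and their part in the interaction was not tested.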

How the results depend on the processing

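No named gene, and no difference in Fos between the arms, changed direction under any alternative run. A replicate block, which follows the pairing of the arrays, gave 1159 calls with c-Fos shRNA (569 higher, 590 lower), 1134 with control shRNA (628 higher, 506 lower), 28 for the interaction (3 higher, 25 lower) and 4677 for 3 h against 1 h (1761 higher, 2916 lower); among list genes it added 46 calls (31 higher, 15 lower) and lost 0. With only the arrays of the groups compared, the counts were 172 (135 higher, 37 lower), 191 (168 and 23), 1 (0 and 1) and 1382 (532 and 850) in the same order, with fewer arrays to estimate the spread. Without an array, c-Fos shRNA gave 237 to 353 calls (189 to 218 higher, 48 to 146 lower), control shRNA 225 to 304 (204 to 257 higher, 21 to 48 lower), the interaction 1 to 4 (0 higher, 1 to 4 lower) and 3 h against 1 h 1498 to 2209 (543 to 728 higher, 955 to 1481 lower). A lone remaining array is then assumed to vary like the other groups. Control falls were 59 without normalization and 75 with a median shift. The interaction had 3 calls (0 higher, 3 lower) with probe sets averaged, 1 (0 higher, 1 lower) without the trend, 0 higher without normalization or with a pseudocount of 64, and 3 lower with a median shift. The cause was not tested. Of the 40 named rises and falls, 40 kept their call under both other scalings, both pseudocounts and no trend, and 35 with only the arrays compared. Kbtbd8 (adjusted p = 0.0544) and Ppp1r3c (0.0906) lost it with probe sets averaged. Among members of the 30 lists, Jund (0.843), Spry4 (0.258), Sc5d (0.186), Msmo1 (0.156) and Plk2 (0.0599) lost theirs that way. Hmgcs1, Hspa4, Hspa8, Nefl, Rgs4 and Tra2b were then called higher and Slc1a3 lower. Genes dim at 0 h, with 2 arrays a group and no floor, have the least certain folds.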

Other observations

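Genes outside every list made up 298 of the 468 called, 181 higher and 117 lower, Grasp counted among them because of its symbol; the following were chosen after their values were seen. Cwc25, a spliceosome protein, rose from 621 and 605 to 2803 and 2498 (log2 2.09, adjusted p = 7.39e-08 in limma). Nfkbid, a nuclear regulator of NF-kappa-B, rose from 86.5 and 99.5 to 447 and 457 (2.05), and Rem2, a small GTPase that acts on calcium channels, from 293 and 317 to 1050 and 1000 (1.67). The somatostatin receptor gene Sstr2 went from 415 and 512 to 1140 and 1089 (1.23), and the transcription machinery genes Taf13 and Ccnl1 changed by 1.39 and 1.27. Among falls, Mycn went from 4113 and 3652 to 2088 and 1717 (-1.07, adjusted p = 0.00907), Sox8 from 393 and 469 to 198 and 222 (-0.97) and Ern1, which codes for the stress sensor IRE1, from 474 and 479 to 227 and 263 (-0.92). In these genes no array of one time overlapped the other, as in all 468 called genes.

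Probe sets of 1 gene were called in opposite directions in 3 genes. For Nup98, a nuclear pore protein, one probe set went from 547 and 619 to 1688 and 1536 (1.43) and another from 505 and 615 to 191 and 241 (-1.31). Polb gave 0.35 and -0.6, and Socs6 0.69 and -0.47. Of 234 called genes with more than 1 probe set tested, all probe sets had the same sign in 190 and were all called the same way in 53. Of 4795 probe sets with no gene in the annotation, 1.73% were called higher and 1.71% lower, against 1.8% and 1.07% of probe sets with 1 gene; the largest rise among them was 3.12 (2 and 15 to 240 and 152) and the largest fall -2.42 (284 and 324 to 36 and 49).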
